A study of Mus with 4 samples.

Results

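*Glul*, *Oat*, *Slc1a2*, *Rhbg*, *Cyp2e1* and *Cyp1a2* are genes of the pericentral hepatocytes, the liver cells that lie around the central vein. These 6 genes were taken by name, out of 21887 protein-coding mouse genes of the RefSeq annotation of GRCm38.p6 (mm10). Their scores were no part of the rule, but the list was chosen with earlier results of these data known. The occupancy of TBX3 at them was read from ChIP-Seq of cultured primary mouse hepatocytes, with 2 TBX3 ChIP libraries and 2 Input libraries. The cells of all 4 libraries carried a Sleeping Beauty transposon with neomycin resistance (pT2-SVNeo), in which the EF1 promoter drives eGFP and, after a P2A sequence, HA-tagged mouse *Tbx3*. TBX3 was pulled down by its HA tag, and Input is the sheared chromatin before immunoprecipitation. The assay therefore saw the introduced, overexpressed protein in G418-selected, expanded cells and not the TBX3 of the liver, and neither an IgG library nor cells without the transposon were analysed here. The paper's expansion medium, also used during selection, held CHIR99021, which inhibits GSK3 and so activates Wnt signaling. It also held EGF, HGF and TNFα. The medium of the ChIP cells is not given separately. The age of the donor animals is not given in the sources used here.

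Wnt ligands released by the endothelium of the central vein activate β-catenin in the hepatocytes next to it and so switch on the pericentral gene program. In this zone ammonia that has escaped urea synthesis is captured as glutamine, and many xenobiotics are oxidized. TBX3 is a T-box transcription factor, mostly known as a repressor, and its own gene is expressed in the Wnt-responsive pericentral cells. The comparison asked whether TBX3 was found on the chromatin of the genes that share this zone with it.

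The data are 1 genome-wide MACS2 track in which each base has the −log10 p-value of the ChIP reads over it against an expected level, called the score here. The track spans 2727620324 bases and has no value per library, and which of the libraries entered it is not stated, so no score below has an error between replicates. Sequencing depth per library is unknown, and the genome-wide expected level was inferred as 2.43 reads over a base. For each gene the highest score was read in 3 windows, within 1 kb of either gene end, between the gene ends, and up to 10 kb outside them. Gene ends are given by coordinate, lower or higher, because the annotation was used without strand. A region was called where a score of 5 or more extended over 200 bp or more, after joining stretches 30 bp or less apart. As a ChIP track holds no expression values, the pericentral identity of the cultured cells could not be checked against their markers.

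None of the 6 pericentral genes had a called region at a gene end, inside the gene or up to 10 kb outside it, at the depth of this track. In all 21887 protein-coding genes a region was called at a gene end in 0.311%, inside the gene in 0.347% and up to 10 kb outside in 0.480%. At such rates, 0 calls in 6 genes is the background level and says nothing particular about them. A single base with an adjusted p of 0.05 or less (Benjamini-Hochberg over all positions of the track, a score of 5.46) was found in 0 of 6 genes at their ends, 1 of 6 inside and 0 of 6 outside, against 2.26%, 7.41% and 5.38% of all genes. That 1 gene was *Slc1a2*, the longest of the 6. *E2f7* and *E2f8*, genes of atypical E2F repressors of the cell cycle, served as a reference measured in the same way. The study reports both as bound by TBX3 from this same ChIP-Seq, and it also tested these sites by ChIP-qPCR and in luciferase reporters. Their high scores were therefore known beforehand and are no independent control. At their ends they scored 22.79 and 15.53, from 31 and 23 inferred reads, 11.5 and 9.45 times the expected level (exact 95% Poisson intervals 7.82 to 16.3 and 5.99 to 14.2). These intervals cover counting error at 1 base only, and that base was chosen as the highest of its window. A read pair whose mates were both counted would make them too narrow, and whether the track counted both was not tested.

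**Figure D1:**
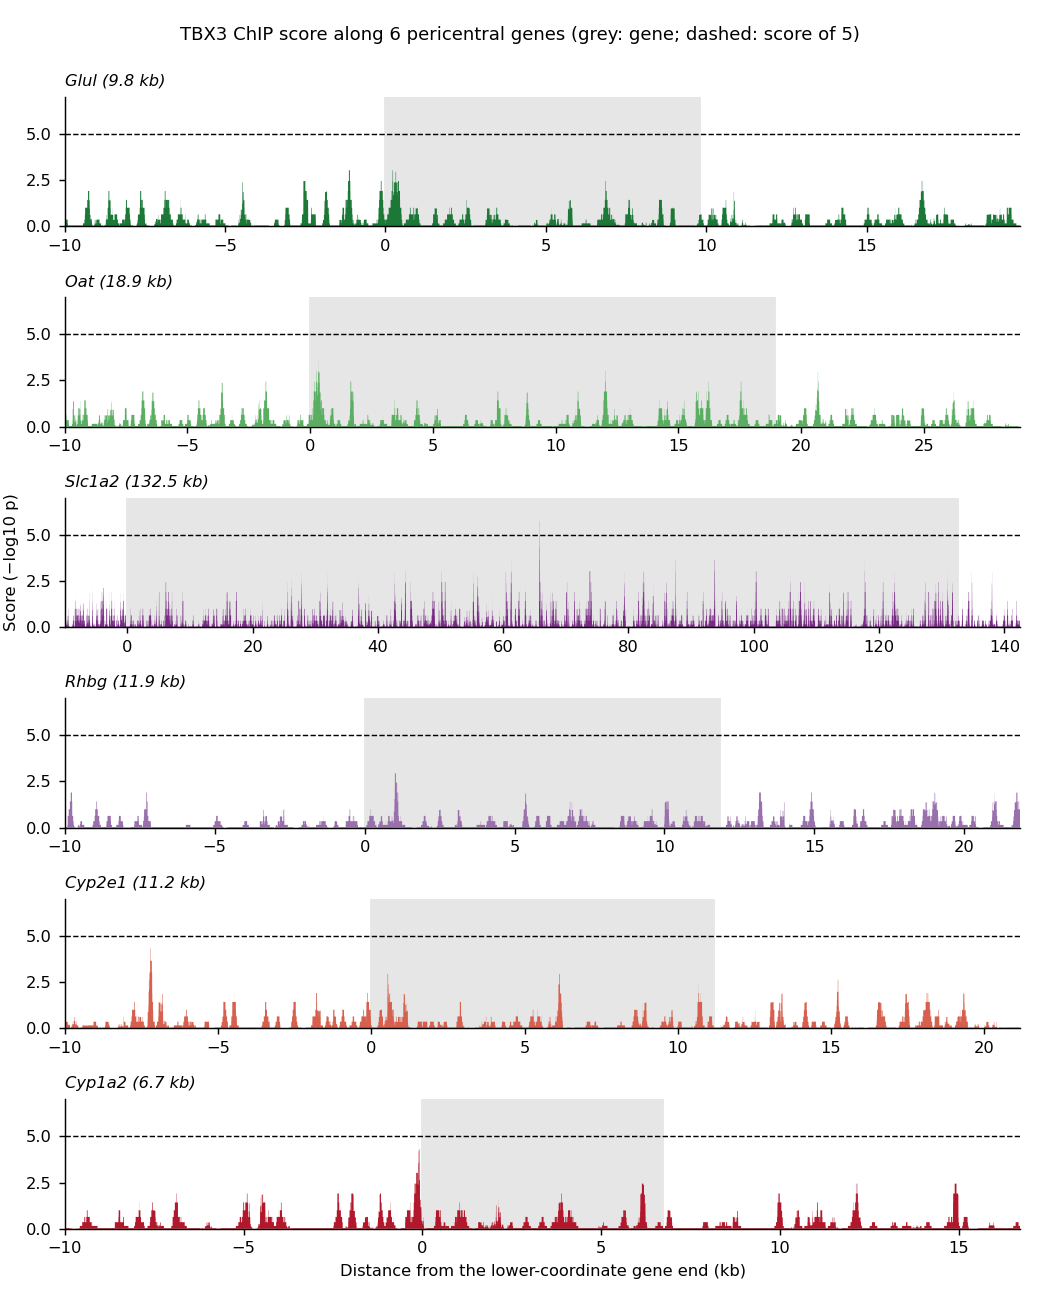
Score (−log10 p) against distance in kb from the lower-coordinate gene end for the 6 pericentral genes, each panel covering the gene (grey) and 10 kb on either side, with the dashed line at a score of 5. Only *Slc1a2* crosses the line, at 5.75 in a single narrow summit, and *Cyp1a2* comes next with 4.89 just outside its lower end.

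*Glul* encodes glutamine synthetase, which joins ammonia to glutamate and marks the innermost ring of pericentral hepatocytes. It lies on chromosome 1 from 153899929 to 153909723 (gene 14645). Its highest end score was 3.02, at position 153900157, 228 bp inside the lower-coordinate end, where 8 reads were inferred against 2.43 expected (3.29 times, exact 95% interval 1.42 to 6.47, adjusted p = 0.298). Such a score was ordinary, since 29.0% of protein-coding genes scored as high at an end (95% Wilson interval 28.4 to 29.6%). The signal was uneven between the ends, with a mean score of 0.749 over the lower end and 0.307 over the higher end. Averaged over both ends, the mean score of 0.528 was reached by 10.7% of genes and the mean inferred ratio of ChIP to expected reads, 0.851, by 10.5% of them. The median gene had a mean score of 0.333 and a ratio of 0.592 there, so *Glul* stood higher by its average than by its highest base. A second stretch at a score of 3.02 was 31 bp long and lay 1124 bp outside the lower end, inside the lncRNA gene *Gm38440*, which ends 153 bp from *Glul*. The miRNA gene *Mir8114* overlaps the lower end of *Glul*, and signal there cannot be divided between the genes.

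*Oat* encodes ornithine aminotransferase, which feeds carbon from ornithine into glutamate. It lies on chromosome 7 from 132557475 to 132576398 (gene 18242), with no other annotated gene within 10 kb. At the lower-coordinate end the score rose to 3.55, 326 bp inside the gene, from 9 reads against 2.50 expected (3.59 times, exact 95% interval 1.64 to 6.82, adjusted p = 0.207). A score as high was found at the ends of 16.4% of all genes (95% Wilson interval 15.9 to 16.9%) and of 11.0% of those on chromosome 7. By the mean score over both ends, 28.7% of all genes were as high. With inferred reads (rounded down) and expected levels divided by 2, as if each read pair had been counted once, the share was 28.0%. The higher end was nearly empty, with a highest score of 0.64. Of 5 stretches with a score of at least 3, 4 lay between 260 and 349 bp inside the lower end, and none was longer than 10 bp. Inside the gene the same 3.55 was its highest score, which 47.0% of genes reached, and outside it the highest score was 2.94, which 78.4% reached.

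*Slc1a2* encodes the glutamate transporter GLT-1, which brings glutamate into the cell. It lies on chromosome 2 from 102658239 to 102790784 (gene 20511), and at 132546 bp it is longer than the other members, with 7.77% of all genes as long. At its ends it equaled the median gene, with a score of 2.44 at 810 bp inside the higher end, which 50.5% of genes reached. This depended on the window, as 90.9% of genes scored as high with windows of 500 bp and 27.8% with windows of 2 kb. Deep inside the gene, 65827 bp from the lower end, position 102724066 scored 5.75, from 12 reads against 2.43 expected (4.93 times, exact 95% interval 2.55 to 8.61, adjusted p = 0.0307). This was the highest score of the 6 genes, and the stretch at a score of 5 or more was 31 bp long, short of the 200 bp needed for a call. Inferred reads (rounded down) and expected levels were also divided by 2 in all genes, as if each read pair had been counted once. The highest score inside *Slc1a2* then fell to 3.56, below the 5.46 used above, though that threshold was not recomputed. By this measure 6.02% of genes scored as high inside. Among all genes 6.41% scored as high inside (95% Wilson interval 6.09 to 6.74%), but among genes of 0.5 to 2 times its length 15.8% did. Of 17 stretches with a score of at least 3, all lay inside the gene, which is 11.1 per 100 kb of the gene and its flanks. Counted the same way, the density was 12.8 for *Oat*, 11.2 for *Cyp1a2*, 6.71 for *Glul*, 3.21 for *Cyp2e1* and 3.14 for *Rhbg*. Stretches were not joined across gaps here, so close ones, as at *Oat* and *Cyp1a2*, counted separately. The density over all genes was not computed, and this order is no ranking of sites. The lncRNA genes *LOC115489466* and *Gm13872* lie within *Slc1a2*, and the summit was in neither.

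*Rhbg* encodes an ammonia transporter of the Rh glycoprotein family. It lies on chromosome 3 from 88242874 to 88254739 (gene 58176), with no other annotated gene within 10 kb. It had the lowest score of the 6 genes at its ends, 1.57, which 78.2% of genes reached (95% Wilson interval 77.7 to 78.8%), and outside the gene, 1.90, which 97.9% reached. The end score sits at the edge of the window, 998 bp inside the lower end, and 8 reads against an expected 4.17 were inferred there (1.92 times, exact 95% interval 0.827 to 3.78). Just past the window, 1042 bp inside the gene, the score was 3.02, at a single base with 8 reads against 2.43. *Rhbg* thus had 1 stretch at 3 or more, the fewest together with *Cyp2e1*. On chromosome 3, where inferred read depth was 0.808 times the autosome median, 99.5% of genes still scored as high outside.

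*Cyp2e1* encodes a cytochrome P450 that oxidizes ethanol and other small molecules. It lies on chromosome 7 from 140763819 to 140774990 (gene 13106). Its highest end score was 2.94, at 540 bp inside the lower end, from 8 reads against 2.50 expected (3.19 times, exact 95% interval 1.38 to 6.29, adjusted p = 0.307), and 31.5% of genes scored as high. Its higher end reached 2.44, so that *Cyp2e1* and *Cyp1a2* were the members with a score above 2 at both ends. Its highest score of all lay away from the gene, 7197 bp outside the lower end, where a stretch of 83 bp reached 4.31 from 10 reads against 2.43 (4.11 times, exact 95% interval 1.97 to 7.55, adjusted p = 0.122). No annotated gene covers that stretch, and 23.4% of all genes had as high a score within 10 kb. By the mean score over the outside windows, *Cyp2e1* was near the middle, with 58.9% of genes as high.

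*Cyp1a2* encodes a cytochrome P450 that is induced through the aryl hydrocarbon receptor and metabolizes caffeine and aromatic amines. It lies on chromosome 9 from 57676937 to 57683655 (gene 13077), and its neighbor *Cyp1a1* begins 4273 bp above its higher end. Of the 6 genes it had the highest end score, 4.89, at position 57676839, 98 bp outside the lower end, from 11 reads against 2.50 expected (4.39 times, exact 95% interval 2.19 to 7.86, adjusted p = 0.0753). This adjusted p missed 0.05. A score as high was found at the ends of 870 genes, or 3.97% of all (95% Wilson interval 3.72 to 4.24%), and of 1.42% of genes on chromosome 9, where read depth was 0.743 times the autosome median. The stretch at 3 or more was 33 bp long, and 2 more, at 3.02, followed at 141 and 164 bp outside the same end. The rank rested on the highest base, since by the mean score over both ends, 0.450, 20.4% of genes were as high. With each read pair counted once, as for *Slc1a2*, the end score fell to 2.79 and 6.84% of genes scored as high. Within the gene *Cyp1a2* scored 2.44, which 76.4% of genes reached. *Cyp1a1*, the aryl hydrocarbon receptor target next to it, scored 2.37 at its ends.

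**Figure D2:**
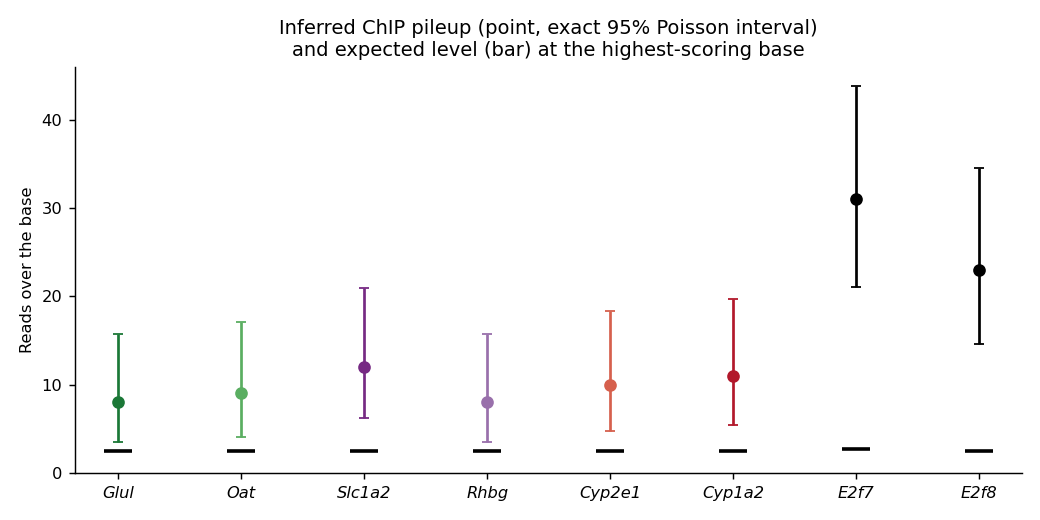
Inferred ChIP reads (points, with exact 95% Poisson intervals) and expected reads (black bars) at the highest-scoring base of each gene over the 3 windows, for the 6 pericentral genes and for *E2f7* and *E2f8*. The pericentral genes lie at 8 to 12 reads with overlapping intervals, and *E2f7* and *E2f8* at 31 and 23, over expected levels of 2.43 to 2.69.

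By the highest score within 1 kb of an end, the 6 genes ranked *Cyp1a2*, *Oat*, *Glul*, *Cyp2e1*, *Slc1a2* and *Rhbg*. The order changed with the window and the measure. With windows of 2 kb, the shares of genes scoring as high were 5.81% for *Cyp1a2*, 26.7% for *Oat*, 27.8% for *Slc1a2*, 45.4% for both *Glul* and *Rhbg* and 48.9% for *Cyp2e1*, and by the mean score within 1 kb *Glul* (10.7%) came before *Cyp1a2* (20.4%). The 95% intervals of reads over the expected level overlapped for every pair of them, down to *Cyp1a2* (2.19 to 7.86) against *Rhbg* (0.827 to 3.78), so neighbors in this order were not told apart by counting error. The lower bound at *E2f7*, 7.82, was above the upper bounds of 5 of the 6 genes at their ends and just under that of *Cyp1a2*, 7.86, and the lower bound at *E2f8*, 5.99, was above that of *Rhbg* (3.78) and *Slc1a2* (5.92). *E2f7* was among 0.0548% of genes with as high an end score and *E2f8* among 0.119%, against 3.97% for *Cyp1a2*. As both references were taken because they were reported as bound from these data, this contrast is a description only. In 5 of the 6 genes the highest end score lay at the lower-coordinate end, and the sixth, *Slc1a2*, had it at the higher end. The share over all genes was not computed. Without strand, a lower end may be either the start or the finish of a gene.

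**Figure D3:**
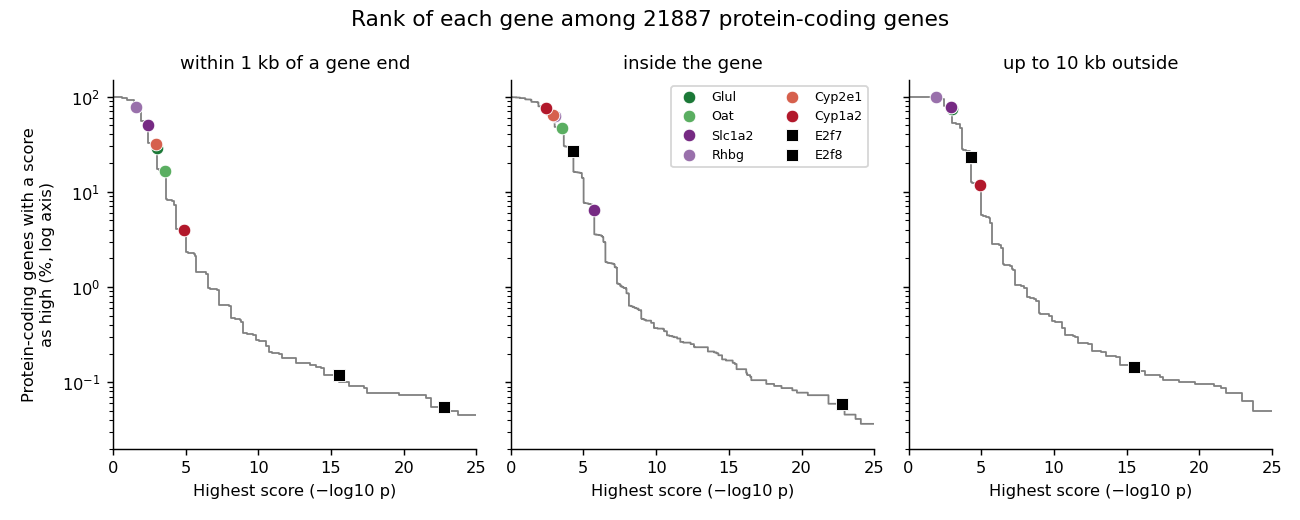
Percent of the 21887 protein-coding genes with a score as high (log axis) against the highest score (−log10 p) in each of the 3 windows (grey line), with the 6 pericentral genes as colored circles and *E2f7* and *E2f8* as black squares. The pericentral genes sit on the upper left of each curve, between 3.97% and 78.2% at gene ends, and points with equal scores cover each other.

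Taken as a group, the 6 genes had a median end score of 2.98, beside a median of 2.44 and quartiles of 1.84 and 3.02 over all genes. At the ends 4 of 6 were above the median gene, which held for 32.8% of all genes because many share the value 2.44. Inside the gene their median was 3.02, equal to that of all genes, with 2 of 6 above it against 48.0% of all genes. Outside, their median of 2.98 was below the 3.55 of all genes, and 2 of 6 were above it against 46.8%. The group was thus somewhat higher than the median gene at the ends, level with it inside and lower outside. Its own medians were nearly equal in the 3 windows, and mainly the median of all genes differed between them. The windows also overlap. The highest end base was also the highest inside base for *Glul*, *Oat* and *Cyp2e1*, and the highest outside base for *Cyp1a2*. With 6 genes chosen by name and scores that come in steps of 1 read, these counts are descriptions.

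The highest score inside a gene rose with its length, as seen over 10 equal classes of genes ordered by length. The shortest class had a median inside score of 1.42 and the longest, from 109 kb, one of 5.01 with quartiles of 4.31 and 5.75. *Slc1a2*, at 5.75, was level with the upper quartile of that class, in which 55.9% of genes reached a score of 5. The other 5 genes, from 6.72 to 18.9 kb long, lay within the quartiles of their own classes. Among them *Oat* was nearest to the upper quartile, at 3.55 against 3.72, and *Cyp1a2* (2.44), *Cyp2e1* (2.94) and *Rhbg* (3.02) were each at the median of their class.

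**Figure D4:**
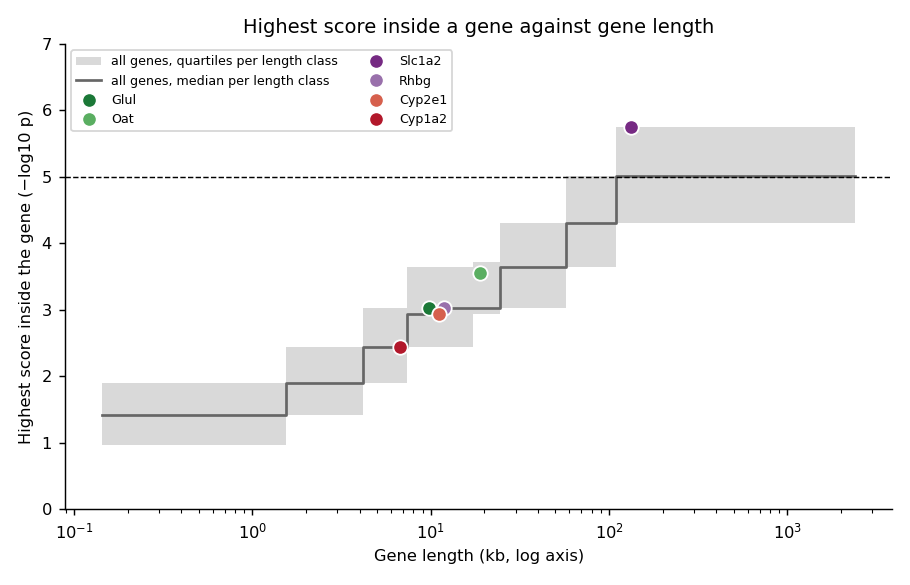
Highest score inside the gene (−log10 p) against gene length in kb (log axis), with the median (line) and quartiles (grey band) of all protein-coding genes drawn as steps for each of 10 length classes, and the dashed line at a score of 5. *Slc1a2*, the longest of the 6 genes, lies at 5.75 on the upper edge of the band, and the other 5 lie inside it.

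The same windows were read in 17 other pericentral or Wnt-induced genes and in 12 periportal genes, which are expressed at the opposite side of the lobule around the portal vein. No gene of either list had a called region in any of the 3 windows, which at 0.311%, 0.347% and 0.480% of all genes is the background level for lists of this size. At the ends 5 of the 17 other pericentral genes were above the median gene, with a list median of 2.37, and 1 of the 12 periportal genes was, with a list median of 1.90, beside 32.8% of all genes. *Sp5*, a Wnt-induced transcription factor, was the highest of the 17 at its ends, with 5.75, a value that 2.12% of genes reached. *Znrf3* and *Lgr5*, a Wnt receptor ligase and an R-spondin receptor, followed with 4.20 and 3.55, and *Axin2*, a feedback inhibitor of Wnt signaling, scored 1.90. The highest of the periportal list was *Hsd17b13*, a lipid droplet protein, with 3.02. The 6 members' median of 2.98 was the highest of the 3 lists at the ends, and no test was made of the difference.

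Inside the gene 10 of the 17 other pericentral genes and 8 of the 12 periportal genes were above the median gene, beside 48.0% of all genes, with list medians of 3.65 and 3.68 against 3.02 for the 6 genes. Genes of these lists are up to 169 and 109 kb long, while 5 of the 6 members are at most 18.9 kb long, and the part of length in the medians was not tested. Outside, 8 of 17 and 6 of 12 were above the median gene, beside 46.8% of all genes, with list medians of 3.55 and 3.33. Bases at an adjusted p of 0.05 or less were present at the ends, inside and outside in 1, 3 and 1 of the 17 genes and in 0, 0 and 0 of the 12, beside 2.26%, 7.41% and 5.38% of all genes. The highest score inside, 7.10, was at *Tbx3* itself, and the cells carry a mouse *Tbx3* sequence in the transposon, whose share in the reads there was not tested. Outside, *Lect2*, a hepatocyte-secreted protein gene, had 5.75, which 4.64% of genes reached. In the periportal list the highest inside score, 4.31, was shared by *Cps1*, the first enzyme of the urea cycle, *Cdh1*, *Hal* and *Hsd17b13*. Outside, *Gls2*, the liver glutaminase, was highest with 5.01, which 10.3% of genes reached. *Gls2* and *Hal*, like *Lgr5* of the other list and the reference *E2f7*, lie on chromosome 10. Inferred read depth there was 1.41 times the autosome median. Its genes had median scores of 4.17 inside and 4.24 outside, beside 3.02 and 3.55 over all genes. The part of depth in the list values was not tested.

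**Figure D5:**
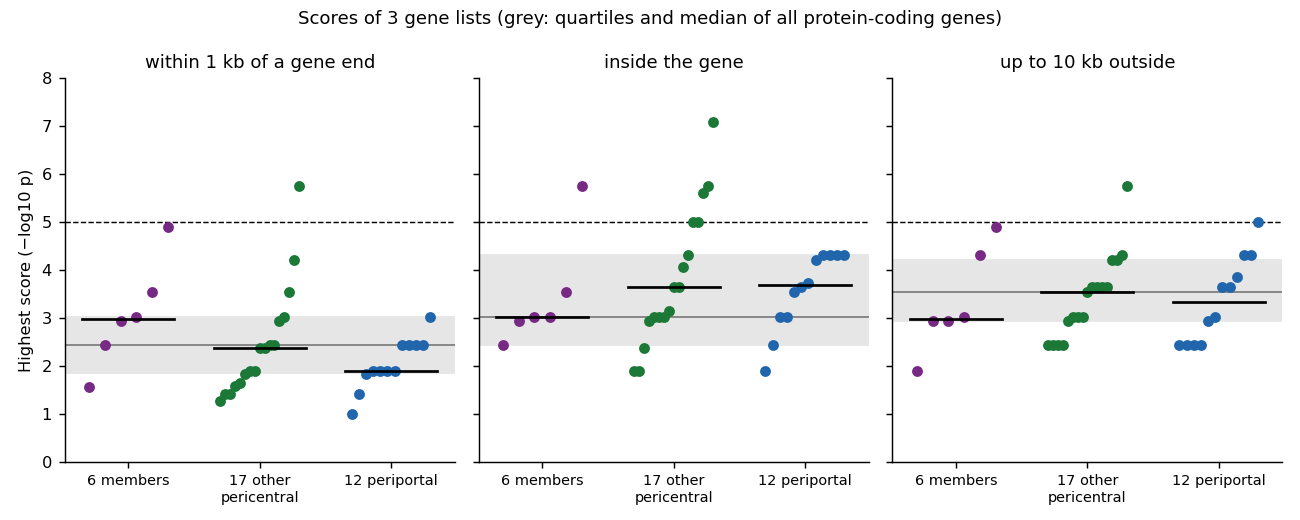
Highest score (−log10 p) of each gene in the 3 windows for the 6 pericentral genes, 17 other pericentral or Wnt-induced genes and 12 periportal genes, ordered by score from left to right within a list, with black bars at the list medians, the grey band and line at the quartiles and median of all protein-coding genes and the dashed line at a score of 5. At gene ends the list medians are 2.98, 2.37 and 1.90, and the single gene above 5 is *Sp5*.

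The nearest called regions were megabases away from the 6 genes. The gene named beside a region is the nearest protein-coding one, measured from the region's highest base, and other gene types were not searched. The closest was 1.97 Mb from *Cyp1a2*, at chromosome 9 from 59656140 to 59656573, with a score of 14.54 and 332 bp from *Pkm*, a gene of glycolysis. For *Cyp2e1* it was 4.20 Mb away, on chromosome 7 from 144971012 to 144971231 with a score of 13.56, and the nearest protein-coding gene was the cell cycle gene *Ccnd1*, 31272 bp off. *Oat* had its nearest region at 5.08 Mb, 369 bp from *Fbrs*, and *Glul* at 16.3 Mb, 129 bp from *Uap1*. The nearest region to *Rhbg* was 18.4 Mb away and lay 26195 bp from its closest protein-coding gene, *Sptssb*, and that to *Slc1a2* was 26.2 Mb away, inside *Zc3h8*. The median protein-coding gene was 6.85 Mb from a called region, so 3 of the 6 genes were nearer to one than the median and 3 were farther.

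The protein-coding gene most like each member was the one nearest to it in the percentiles of its 3 highest scores. It was *2310022A10Rik* for *Glul*, *Nmt1* for *Oat*, *Kdm2b* for *Slc1a2*, *1700018F24Rik* for *Cyp2e1* and *Ccdc47* for *Cyp1a2*, each with the same 3 percentiles as the member. Scores come in steps, and 265 genes had exactly the percentiles of *Glul*, 9 those of *Cyp2e1*, 6 those of *Slc1a2* and 2 each those of *Oat* and *Cyp1a2*. Among such equals the first by symbol was named, so it is no closer a match than the others. *Rhbg* had no equal, and *Dnah10* was nearest, at a distance of 1.98 percentile points.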

How the data were processed

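TBX3 ChIP and Input libraries of primary mouse hepatocytes were sequenced, 2 of each. The authors mapped the reads with Bowtie2, sorted them with SAMtools and deposited 1 MACS2 track of −log10 p-values. The submitters' processing notes name mm10. Versions, duplicate handling and how replicates were combined are not given in the sources used here. There were 0 columns of other samples.

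From the deposited −log10 values, regions were called (score of at least 5, gaps of up to 30 bp, minimum 200 bp; 125 in the genome). P-values were adjusted by Benjamini-Hochberg over all positions. Genes came from RefSeq GRCm38.p6. ChIP reads and the expected level at a base were inferred as the Poisson pair that gives the score, with as few changes along the chromosome as possible. Reads were taken as extended to 150 bp and Input windows as 1000 and 10000 bp, and the genome-wide level was the lowest expected level allowed. Shares of genes carry 95% Wilson intervals, which treat the genes as a sample. As all protein-coding genes were counted and genes are not replicates, these intervals are nominal. They leave out the error of the member's own score, which moves in steps. At 2.43 expected reads, 8 reads scored 3.02 and 9 reads 3.65. The calling and the inference were tested on simulated single reads with planted sites stronger than the signal at the 6 genes. Detection of sites as weak as that signal and the counting of mates were not covered. The members and lists were chosen with earlier results of these data known. Genes named are the 6 members, *E2f7* and *E2f8*, the gene most like each member, the highest gene of each list, and the gene nearest to each member's nearest region. *Znrf3*, *Lgr5*, *Axin2*, *Cyp1a1* and the overlapping or adjacent noncoding genes were named beside these after their values were seen. Windows at transcription starts alone and the search for motifs need strand and sequence and were not run. Scripts ran under Python 3.11.15 with scipy 1.17.1 for the distributions and numba 0.67.0 for the inference. Tables were handled with numpy 2.4.6 and pandas 2.3.3, and plots were drawn with matplotlib 3.10.9.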

Additional observations from a re-analysis of the deposited data

How the results depend on the processing

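The count of pericentral genes with a called region stayed at 0 in each of the 3 windows under all alternatives. These were a score cutoff of 3, 10 or the score at an adjusted p of 0.05, regions of 100 bp, and joined gaps of up to 100 bp. Only the cutoff of 3 could have added a call, since the single stretch at 5 or more in the 6 genes was 31 bp long. The share of all genes called was not computed for these alternatives, so the count adds nothing to the main result. The count of the 6 genes above the median gene inside the gene went from 2 to 5 when genes of any type were the comparison, and to 1 when inferred reads (rounded down, which makes more scores equal) and expected levels were divided by 2 to count each read pair once, an alternative chosen after seeing the data. Outside the gene it went from 2 to 1 with windows of 5 kb. At the ends it was 3 to 6 over all alternatives. The share of all genes above the median was not computed for these alternatives, so the counts have no background beside them. The share of genes scoring as high moved by more than its Wilson interval, a narrow and nominal yardstick, in 39 of 42 alternative values at the ends, 28 of 30 inside and 32 of 42 outside. It ranged from 1.42 to 20.4% for *Cyp1a2* at its ends, 10.1 to 28.7% for *Oat*, 10.7 to 45.4% for *Glul*, and 3.62 to 26.1% for *Slc1a2* inside, each on 1 side of 50%. It crossed 50% at the ends for *Slc1a2* (27.8 to 90.9%), *Rhbg* (45.4 to 90.9%) and *Cyp2e1* (23.6 to 53.9%). Inside it crossed 50% for *Glul* (39.0 to 76.9%), *Oat* (29.8 to 60.9%), *Rhbg* (42.7 to 74.6%) and *Cyp2e1* (44.8 to 66.5%), and outside for *Glul* (44.1 to 90.3%), *Slc1a2* (31.8 to 90.3%), *Cyp2e1* (17.1 to 59.0%) and *Cyp1a2* (2.83 to 69.4%). For these moves the cause was not tested. Since only 1 column of values exists, no replicate could be left out. No paired analysis was possible because the track gives no value per sample. Windows at transcription starts alone and the motif search were not run. Sites with less ChIP signal than a call needs were not detectable at this depth.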
